A study of Homo sapiens with 4 samples.

Results

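Expression of the insulin-like growth factor (IGF) binding proteins and of genes that pass on the IGF signal was examined in MDA-MB-231 cells after loss of ZEB2. The set held 10 genes, namely the binding proteins IGFBP1 to IGFBP7, the protease gene PAPPA, the receptor gene IGF1R and the adaptor gene IRS1. They were found by gene symbol, and every probe set annotated with exactly 1 of these symbols was taken, which gave 35 of the 54675 probe sets on the array. Each of the 10 genes was represented. The study profiled total RNA of 4 cultures on Affymetrix U133 Plus 2 arrays, 1 array per culture. A stable knockdown carried an shRNA against ZEB2 delivered by stable transduction, and its control carried the vector pLVTH. A transient knockdown received an siRNA pool against ZEB2 at 20 nM, and its control received siRNA against luciferase at the same dose. The siRNA cultures were washed 24 hours after transfection and harvested 48 hours later. All 4 cultures were of MDA-MB-231, a line from a human breast carcinoma, and were described as grown in Leibovitz-15 medium with 10% foetal calf serum, itself a source of IGFs and binding proteins. The labels do not say whether the stable lines were clones or pools of cells.

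IGF1 and IGF2 are secreted growth factors that act through the receptor tyrosine kinase IGF1R. The activated receptor phosphorylates adaptors such as IRS1, which start PI3K and AKT signalling. Outside the cell most IGF is held by binding proteins that keep it from the receptor, and proteases such as pappalysin, the product of PAPPA, cut some of them and set the ligand free. In breast epithelium the IGF axis is known for its part in growth and survival.

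Values were log2 expression values made by the authors with RMA, and a difference of 1 between arrays is 2-fold. Each difference is given as knockdown minus its own control, unless stated otherwise. With 1 array per group, there is no replicate behind any difference within a pair. For each gene the probe set with the highest mean over the 4 arrays stands for it, and the gene was kept when that probe set reached the 40th percentile of all values, 4.77, on at least 1 array. Of the 10 genes 9 were kept, and of the 35 probe sets 27. IGFBP2 was the gene left out, PAPPA reached that level on 3 arrays and the other 8 genes on all 4. ZEB2 itself read 3.52 on the shRNA ZEB2 array and 6.12 on the shRNA control array, and 3.51 on the siRNA ZEB2 array and 6.56 on the siRNA control array. All 6 markers of a mesenchymal-like basal breast line were kept, with VIM between 13.64 and 14.12 on the 4 arrays. Markers listed for other cell types were in part above the filter level as well. Of the 6 luminal breast markers 4 were kept, ESR1 (6.08 to 6.54), ERBB2 (7.83 to 7.97), GATA3 (8.18 to 9.48) and XBP1 (9.08 to 10.06), while PGR and FOXA1 were below the filter level on every array. Of the 3 leukocyte markers with a probe set, CD3E read 5.17 to 5.52, CD14 read 6.94 and 7.30 on the siRNA arrays and 4.98 and 5.21 on the shRNA arrays, and PTPRC was below the filter level throughout. Of the 3 endothelial markers PECAM1 and VWF were kept and CDH5 was not. The arrays stood apart by method. The siRNA control differed at least 2-fold from the shRNA control in 15.8% of the 15082 genes kept, which is more than either knockdown differed from its control, so each value of the stable pair below rests on a control array that was far from the other control. In RNA from whole cultures, fewer cells expressing a gene and less of its RNA per cell cannot be told apart.

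IGFBP1, a secreted binding protein whose transcription is repressed by insulin in liver, was lower after either knockdown. The brightest of its probe sets read 8.54 on the shRNA ZEB2 array and 9.98 on the shRNA control array. The same probe set read 8.09 on the siRNA ZEB2 array and 9.25 on the siRNA control array. Both knockdown arrays thus lay below both control arrays, with 0.72 between the higher knockdown array and the lower control array. The differences were -1.44 in the stable pair and -1.16 in the transient pair, or 2.72-fold and 2.24-fold lower. All 4 values were well above the filter level, so the difference does not rest on the dim end of the scale. IGFBP1 was the only one of the 9 genes kept whose knockdown arrays both lay on 1 side of both control arrays. Among all genes kept, 8.85% had both knockdown arrays below both controls and 6.6% had them above. A gap of at least 1.5-fold below the controls was seen in 0.0862% of genes, and 11 genes, IGFBP1 and ZEB2 among them, had a gap as large as that of IGFBP1. Set against the siRNA control instead, the stable knockdown differed by -0.72. The second IGFBP1 probe set read between 2.76 and 2.99, below the filter level on every array, and differed by -0.21 and 0.11. Of the 4 hepatocyte markers 3 were kept, and ALB was below the filter level on every array. SERPINA1 read 8.42 on the shRNA ZEB2 array and 5.78 on the shRNA control array, and 8.99 on the siRNA ZEB2 array and 8.59 on the siRNA control array. TTR differed by -0.16 in the stable pair and 0.24 in the transient pair, and APOA1 by -0.51 and 0.098. The mean of the 4 markers was 5.54 on the shRNA ZEB2 array and 5.07 on the shRNA control array, and 5.80 on the siRNA ZEB2 array and 5.63 on the siRNA control array. These are RNA levels of marker genes in cultures of the MDA-MB-231 line, and their relation to the IGFBP1 values was not tested.

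**Figure D1:**
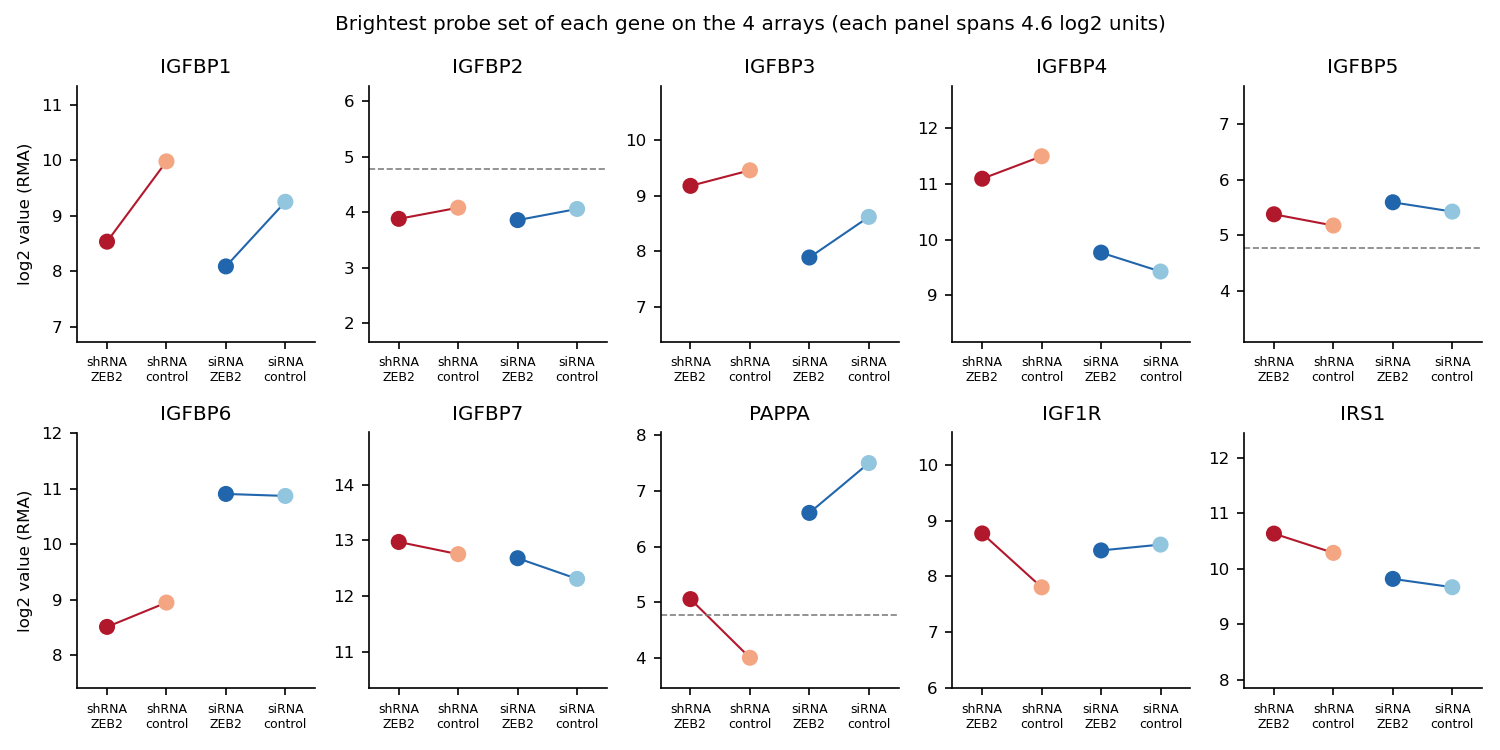
Level of each gene on the 4 arrays, as the log2 value of its brightest probe set (vertical axis, each panel spanning the same number of log2 units). Points are single arrays, lines join a knockdown to its own control, and the dashed line is the filter level of 4.77. IGFBP1 lies lower on both knockdown arrays, while PAPPA, IGFBP4 and IGFBP6 differ most between the shRNA and the siRNA arrays.

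At 2-fold, IGFBP1 was the single member lower in the stable pair, where 2.08% of all genes kept were as low, and the single member past 2-fold in the transient pair, where 0.126% were as low. It was also the single member at least 2-fold lower in both pairs, as were 7 of the 15082 genes, or 0.0464%. PAPPA was the single member at least 2-fold higher in the stable pair, against 2.39% of all genes. No member was 2-fold higher in the transient pair, against 0.0464% of all genes. Over the 9 genes kept, the median difference was 0.20 in the stable pair, against -0.024 over all genes kept, and 0.036 in the transient pair, against -0.018. The members therefore had no common direction.

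IGFBP3, the main carrier of IGFs in serum and the gene next to IGFBP1 on chromosome 7, was lower in both pairs, by less than 2-fold. Its brightest probe set read 9.18 on the shRNA ZEB2 array and 9.46 on the shRNA control array, and 7.89 on the siRNA ZEB2 array and 8.62 on the siRNA control array. The differences were -0.28 and -0.73. A second probe set differed by -0.11 and -0.78, so both probe sets placed the larger difference in the transient pair. Both siRNA arrays lay below both shRNA arrays in IGFBP3. The stable knockdown therefore differed by 0.56, in the other direction, when set against the siRNA control. IGFBP1 and IGFBP3 were the only members lower in both pairs. Of all genes kept, 27.8% were lower in both pairs at any size.

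ZEB proteins bind DNA through zinc fingers at letters of the type CACCT, often as the E-box CACCTG. Promoter windows of 300 bases, from 250 before the annotated start to 50 after it, were available from RefSeq for 8 of the 10 members (GRCh38.p14). The windows numbered 10, since IGFBP2 had 3. IGFBP1 and IGFBP7 had no window and were not searched. The letters CACCTG were read on both strands, so also as CAGGTG. They were found in 3 of the 10 windows and in 20.6% of all 35116 windows. The 3 windows belong to IGFBP2, IGFBP3 and IGFBP6. The shorter CACCT, searched on both strands and also held by each E-box match, was found in 7 of the 10 windows, of IGFBP2, IGFBP3, IGFBP4, IGFBP6 and PAPPA, and in 51.6% of all windows. The windows of IGFBP3 and IGFBP6 are shown because both hold an E-box while their values on the arrays differ, IGFBP3 being lower in both pairs and IGFBP6 in the stable pair alone. Capitals mark the shorter letters on either strand and the E-box. The first lies at chr7:45921223-45921522 on the minus strand, with its E-box starting at position -193 and 3 capital runs in all. The second lies at chr12:53097417-53097716 on the plus strand, with its E-box, the sole capital run, starting at -69. Positions count the annotated start as 0.
IGFBP3: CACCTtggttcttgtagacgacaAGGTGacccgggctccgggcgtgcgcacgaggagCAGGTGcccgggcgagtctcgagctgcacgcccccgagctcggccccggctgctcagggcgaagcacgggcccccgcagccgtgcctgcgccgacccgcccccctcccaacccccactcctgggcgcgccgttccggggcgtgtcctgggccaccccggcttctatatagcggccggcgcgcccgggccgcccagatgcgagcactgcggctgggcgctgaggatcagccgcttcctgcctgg
IGFBP6: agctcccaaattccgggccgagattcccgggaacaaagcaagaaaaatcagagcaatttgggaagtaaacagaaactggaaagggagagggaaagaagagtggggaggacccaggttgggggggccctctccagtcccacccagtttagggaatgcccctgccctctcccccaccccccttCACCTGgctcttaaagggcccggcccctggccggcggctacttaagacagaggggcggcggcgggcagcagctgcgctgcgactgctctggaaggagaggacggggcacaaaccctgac
A match is a description of the letters, and no binding was measured in these samples.

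IGFBP4, a binding protein that mostly restrains IGF and is the best known target of pappalysin, differed in opposite directions in the pairs. So did IGFBP6, PAPPA and IGF1R, 4 of the 9 genes kept, against 51.1% of all genes kept. It read 11.09 on the shRNA ZEB2 array and 11.50 on the shRNA control array, and 9.76 on the siRNA ZEB2 array and 9.42 on the siRNA control array. The differences of -0.40 and 0.34 were small beside the gap between the methods, since every shRNA array was at least 1.33 above every siRNA array. IGFBP6, which prefers IGF2 over IGF1, had the reverse order of methods. It read 8.51 on the shRNA ZEB2 array and 8.95 on the shRNA control array, against 10.90 on the siRNA ZEB2 array and 10.87 on the siRNA control array. Its differences were -0.44 in the stable pair and 0.04 in the transient pair. IGFBP4 and IGFBP6 have 1 probe set each, so neither value could be checked against another probe set.

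IGFBP7, a low-affinity relative of the family found in vessel walls and matrix, was bright on every array. Its brightest probe set read 12.97 on the shRNA ZEB2 array and 12.75 on the shRNA control array, and 12.68 on the siRNA ZEB2 array and 12.31 on the siRNA control array. The differences were 0.22 and 0.37. A second probe set of nearly the same brightness differed by 0.23 and -0.16, and another, at the filter level on 1 array alone, by 0.43 and -0.21. The sign in the stable pair was thus shared by the 3 probe sets, and that in the transient pair was not. IGFBP5, which binds to matrix and bone mineral, was dim. It read 5.38 on the shRNA ZEB2 array and 5.18 on the shRNA control array, and 5.60 on the siRNA ZEB2 array and 5.43 on the siRNA control array. The differences of its brightest probe set were 0.20 and 0.17. Its 2 other probe sets above the filter differed by -0.22 and 0.59 and by 0.02 and -0.45, and 3 more stayed below the filter level on every array. IGFBP2, the neighbour of IGFBP5 on chromosome 2, read 3.88 on the shRNA ZEB2 array and 4.08 on the shRNA control array. It read 3.86 on the siRNA ZEB2 array and 4.06 on the siRNA control array. These values lie below the filter level, where RMA compresses differences, and -0.20 in each pair is not read as a change.

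**Figure D2:**
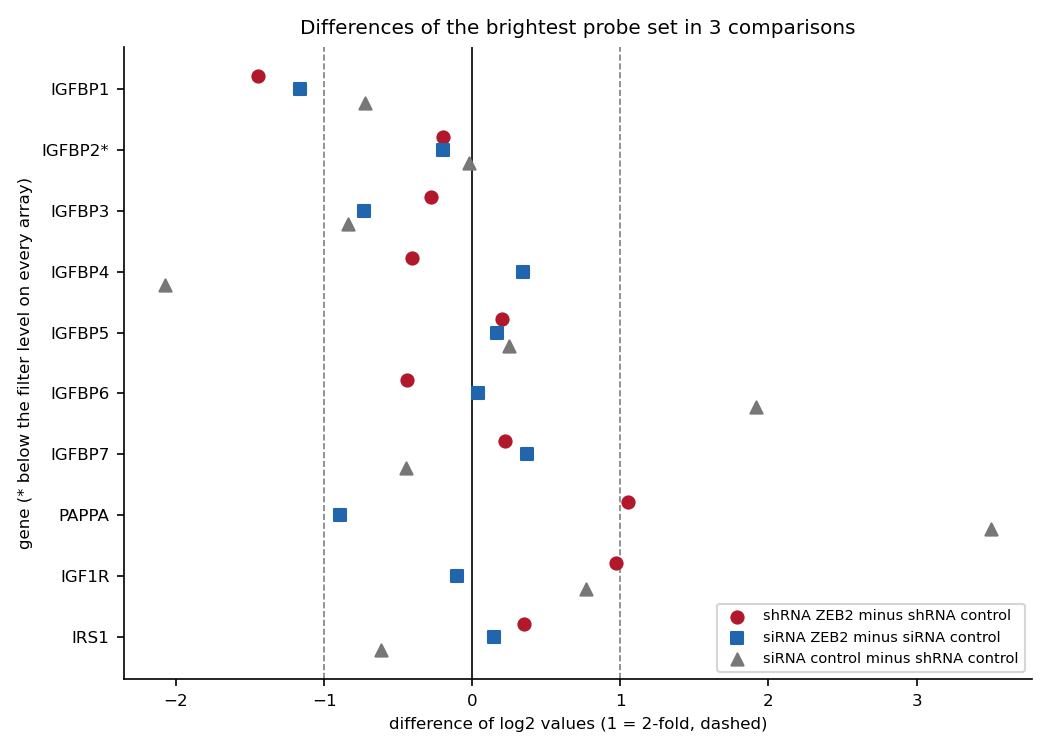
Difference of the brightest probe set of each gene (vertical axis) in log2 units (horizontal axis) for the shRNA ZEB2 array minus the shRNA control array (red circles), the siRNA ZEB2 array minus the siRNA control array (blue squares) and the siRNA control array minus the shRNA control array (grey triangles). Dashed lines mark 2-fold. IGFBP1 lies left of the line at -1 in both pairs, and the triangles of PAPPA (3.50), IGFBP4 (-2.07) and IGFBP6 (1.92) lie farther from 0 than any knockdown difference.

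PAPPA encodes the secreted metalloprotease that cuts IGFBP4, in the presence of IGF, and also IGFBP5. Its brightest probe set read 5.06 on the shRNA ZEB2 array and 4.003 on the shRNA control array. It read 6.61 on the siRNA ZEB2 array and 7.50 on the siRNA control array. The siRNA arrays were at least 1.55 above the shRNA arrays, and the shRNA control was below the filter level. The difference was 1.05 in the stable pair and -0.90 in the transient pair, so the knockdowns differed in sign. Against the siRNA control the stable knockdown differed by -2.45, the other direction.

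PAPPA had 11 probe sets, of which 8 reached the filter level on an array and 3 on all arrays. The brightest probe set has a name ending in _x_at, which marks probes that may bind other transcripts. Without such probe sets the representative differed by 0.84 in the stable pair and -1.20 in the transient pair, past 2-fold in the transient pair, where 0.175% of all probe sets kept were as low. Of the 8 probe sets, 5 were at least 2-fold higher in the siRNA control, set against the shRNA control, by 1.696 to 3.50, as were 9.11% of all probe sets kept. In the transient pair these 5 were all lower, by -0.64 to -1.20. In the stable pair 4 of them were higher, by 0.68 to 1.05. The fifth differed by -0.55, with 4.01 on the shRNA ZEB2 array and 4.56 on the shRNA control array, both below the filter level. The shRNA control array was below the filter level in all 5, at 3.70 to 4.56. The probe set that differed by 0.68 was also below it on the shRNA ZEB2 array, at 4.38. These 5 were singled out after their values were seen. The other 3 above the filter differed by -0.16 to -0.03 in the stable pair and by -0.15 to 0.06 in the transient pair. The mean of all 11 gave 0.23 and -0.43, neither past 2-fold.

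**Figure D3:**
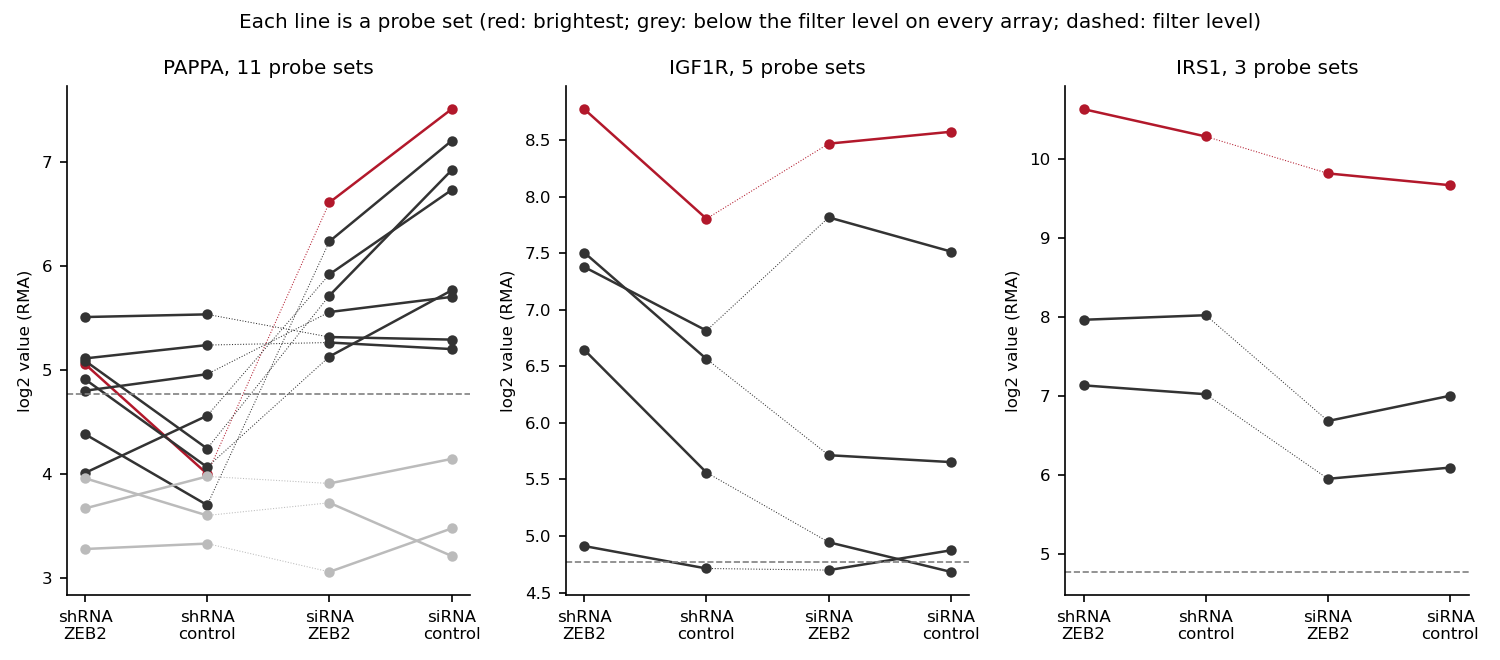
Log2 value (vertical axis) of every probe set of PAPPA, IGF1R and IRS1 on the 4 arrays (horizontal axis). Solid lines join a knockdown to its control, dotted lines only link the same probe set across methods, red is the brightest probe set, grey never reaches the filter level of 4.77, and the dashed line is that level. The 5 PAPPA probe sets that differ most between the methods read 5.76 to 7.50 on the siRNA control array and 3.70 to 4.56 on the shRNA control array, and IGF1R probe sets rank the methods differently.

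IGF1R, the receptor, was higher in the stable knockdown, just short of 2-fold, and nearly level in the transient one. Its brightest probe set read 8.77 on the shRNA ZEB2 array and 7.80 on the shRNA control array, and 8.47 on the siRNA ZEB2 array and 8.57 on the siRNA control array. The differences were 0.97 and -0.10. In this probe set the shRNA control was the lowest of the 4 arrays, and the stable knockdown differed by 0.20 from the siRNA control. In the other probe sets the stable knockdown differed from the siRNA control by -0.14, 1.85, 1.96 and 0.04. All 5 IGF1R probe sets were higher in the stable pair, by 0.20 to 1.08, and 1 of the other probe sets was past 2-fold there, as were 2.5% of all probe sets kept in that direction. In the transient pair they ranged from -0.17 to 0.30. Between the controls the probe sets disagreed. In the siRNA control, relative to the shRNA control, 2 of them differed by 0.77 and 0.70 and 2 by -0.91 and -0.88, so a level of IGF1R between the methods depends on the probe set.

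IRS1, the adaptor that links the receptor to PI3K, was brighter with the shRNA method than with the siRNA method. It read 10.63 on the shRNA ZEB2 array and 10.29 on the shRNA control array, and 9.82 on the siRNA ZEB2 array and 9.67 on the siRNA control array. The differences were 0.35 and 0.15. Its 2 other probe sets differed by -0.06 and 0.11 in the stable pair and by -0.32 and -0.14 in the transient pair, so the sign depended on the probe set. All 3 were lower in the siRNA control, set against the shRNA control, by -0.62, -1.02 and -0.93.

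**Figure D4:**
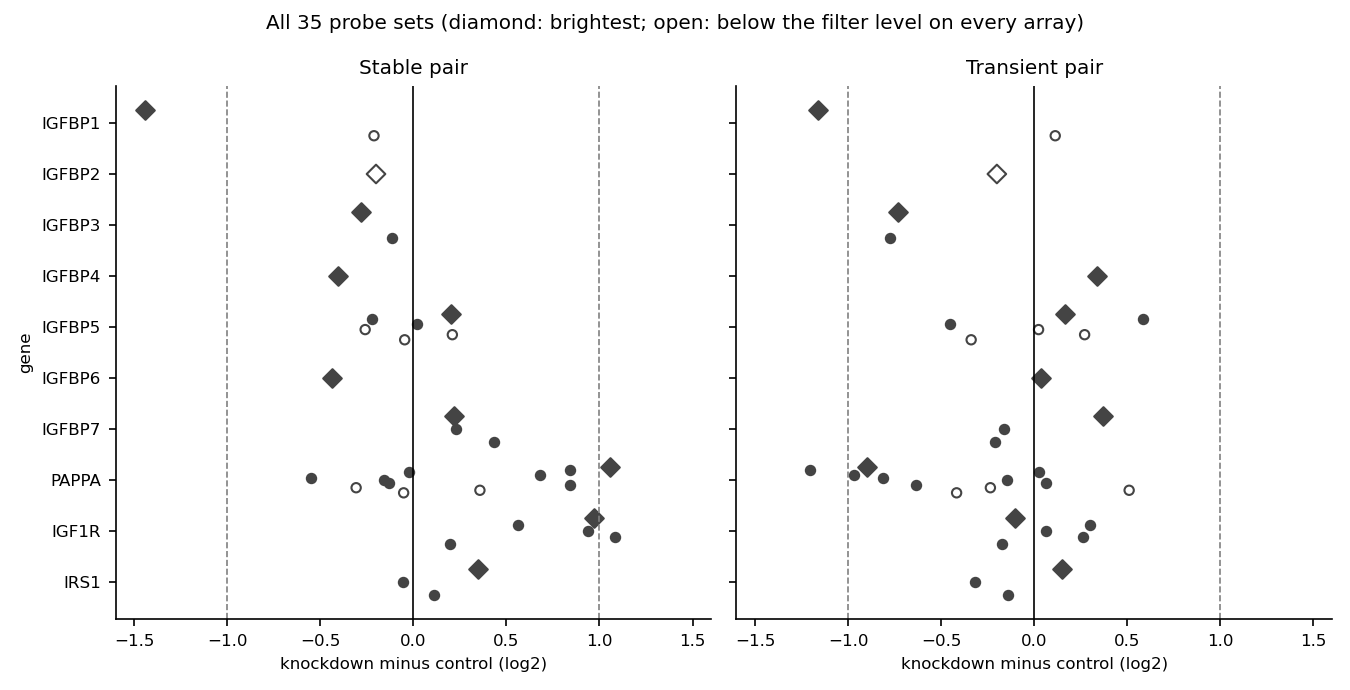
Knockdown minus control difference in log2 units (horizontal axis) for each of the 35 probe sets by gene (vertical axis), in the stable pair on the left and the transient pair on the right. Diamonds are the brightest probe set of a gene, open symbols stay below the filter level on every array, and dashed lines mark 2-fold. The 5 IGF1R probe sets all lie right of 0 in the stable pair, while those of IGFBP5 and IRS1 lie on both sides.

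The controls were then set against each other, as siRNA control minus shRNA control. Of the 9 genes kept, 2 were at least 2-fold higher, PAPPA by 3.50 and IGFBP6 by 1.92, and IGFBP4 was at least 2-fold lower, at -2.07. Among all genes kept 10.8% were 2-fold higher and 4.99% were 2-fold lower. The other differences were -0.84 for IGFBP3, -0.73 for IGFBP1, -0.62 for IRS1, -0.44 for IGFBP7, 0.25 for IGFBP5 and 0.77 for IGF1R. Over both knockdowns and controls, the siRNA arrays did not overlap with the shRNA arrays in 7 of the 9 genes, against 67.3% of all genes kept, so that share is near the background. They were at least 2-fold apart in 3 genes, IGFBP4, IGFBP6 and PAPPA, against 6.21% of all genes. Of the 7 genes the gap was smallest in IGFBP5 (0.049) and IGFBP7 (0.073). The probe sets of each of these genes did not share 1 sign between the controls. This comparison shares an array with each knockdown pair, so its values stand beside theirs with no correlation. The labels do not say whether the methods were run in parallel, and method, culture and array cannot be told apart.

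A common effect of ZEB2 loss was tested with limma over the 4 arrays, with the method as a block. The fit takes the methods as replicates and has 1 residual degree of freedom. Its p-values thus rest on the disagreement between the stable and the transient difference, with variance shared over genes. They do not measure the spread between cultures. IGFBP1 had a mean difference of -1.30 ± 0.18 (SE) in limma, with a 95% interval of -1.81 to -0.79, and was lower in 2 of 2 pairs. Its unadjusted p in limma was 0.00225, with rank 4 among 15082 genes, and its adjusted p was 0.971. Over the alternatives its adjusted p in limma ranged from 0.962 to 1. IGFBP3 had -0.50 ± 0.20 with an unadjusted limma p of 0.0686, and IGFBP7 had 0.30 ± 0.12 with 0.0709. The other 6 genes had unadjusted limma p-values of 0.21 to 0.903. No member passed after Benjamini-Hochberg adjustment over all genes, as was true of every gene (0%). At an unadjusted p under 0.05, limma gave 1 member, IGFBP1, and 2.55% of all genes. The interval of PAPPA was the widest of the members, from -1.38 to 1.54, with IGF1R next, from -0.47 to 1.33. Both reach past 2-fold, as do the interval of IGFBP1 and that of IGFBP3, from -1.07 to 0.06. These intervals rest on 1 residual degree of freedom and set no bound on an effect.

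Other genes of the IGF pathway were described from 10 lists holding 125 genes, of which 113 had a probe set and 105 were kept. In the stable pair 3 of the 105 lay 2-fold or more above the control and 2 lay as far below it, 4.76% in all against 4.47% of all genes kept. In the transient pair 0 were past 2-fold, against 0.172% of all genes. Between the controls 20% were past 2-fold, against 15.8%. Limma called 0 of them after adjustment and gave 4, or 3.81%, at an unadjusted p under 0.05, against 2.55% of all genes kept.

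Among ligands, IGF1 differed by -0.25 and 0.02, and IGF2 was not analysed here. The serum carrier subunit gene IGFALS differed by 0.05 and -0.35. IGF2R, the receptor that removes IGF2 by carrying it to lysosomes, read 10.23 on the shRNA ZEB2 array and 10.45 on the shRNA control array, and 10.96 on the siRNA ZEB2 array and 11.12 on the siRNA control array. It differed by -0.23 and -0.17, and its 3 probe sets were lower in both pairs. INSR, the insulin receptor, differed by 0.34 and -0.04, and INSRR by -0.27 and 0.05. The 4 INSR probe sets above the filter ranged from -0.31 to 0.56 in the stable pair. No ligand or receptor of these lists was past 2-fold in either pair.

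The 14 proteases and inhibitors kept had medians of -0.020 and 0.078. TIMP1, an inhibitor of matrix metalloproteases, was the one past 2-fold, at -1.32 in the stable pair and -0.23 in the transient pair. When set against the siRNA control, the stable knockdown differed by -0.01 in TIMP1. STC1, which encodes stanniocalcin-1, an inhibitor of pappalysin, differed by -0.75 and -0.47. Its 3 probe sets above the filter ranged from -1.05 to -0.57 in the stable pair and from -0.85 to -0.47 in the transient pair. Between the controls STC1 differed by -1.89. The stable knockdown differed from the siRNA control by 1.13, the other direction. The related gene STC2, named like STC1 after the values were seen, differed by -0.23 and -0.33. A second STC2 probe set above the filter differed by 0.02 and -0.02. Of the IGFBP-domain proteins outside the family, 7 were kept with medians of 0.022 and -0.023. The largest differences were those of the matricellular genes CCN2 (-0.75 and 0.04) and CCN5 (0.73 and -0.02). From the siRNA control the stable knockdown differed by 1.53 in CCN2 and -0.27 in CCN5, each with another sign.

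Adaptors and regulators had medians of 0.064 and -0.063 over 18 genes. Of these, 10 were higher and 8 lower in the stable pair, and 5 higher and 12 lower in the transient pair. Of all 15082 genes kept, 7032 were higher and 8030 lower in the stable pair, and 6932 higher and 8104 lower in the transient pair. The guanine exchange factor gene SOS1 differed by 0.69 and -0.05, and the adaptor gene SHC3 by 0.54 and -0.56. From the siRNA control the stable knockdown differed by 0.75 in SOS1 and 1.02 in SHC3. The PI3K, AKT and mTOR list had medians of 0.086 and -0.110 over 20 genes. It had 11 genes higher and 9 lower in the stable pair, and 4 higher and 16 lower in the transient pair. Whether these counts differ from those over all genes kept was not tested. PIK3CD, a catalytic subunit of PI3K, differed by 0.92 and -0.06, and PHLPP1, a phosphatase that acts on AKT, by -0.46 and -0.21. The 2 PIK3CD probe sets above the filter ranged from -0.01 to 0.92 in the stable pair. With the siRNA control as reference, the stable knockdown differed by -0.88 in PIK3CD and -0.01 in PHLPP1. The RAS and ERK list had medians of 0.083 and -0.0030 over 13 genes. Its largest differences were those of the kinase gene RPS6KA1 (0.87 and -0.14) and of SPRED2, an inhibitor of RAS signalling (0.70 and 0.15). With the siRNA control as reference, the stable knockdown differed by -0.996 in RPS6KA1 and -0.44 in SPRED2. No gene of the adaptor, PI3K and RAS lists was past 2-fold in either pair.

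Insulin and IGF act on transcription in part through FOXO factors, which AKT keeps out of the nucleus, and IGFBP1 is a known FOXO target in liver. Of the 14 FOXO factors and known targets kept, 3 lay 2-fold or more above the control in the stable pair, against 2.39% of all genes kept, and 1 as far below it, against 2.08%, with medians of 0.263 and -0.145 in the stable and the transient pair. TXNIP, an inhibitor of thioredoxin and glucose uptake, read 10.87 on the shRNA ZEB2 array and 8.94 on the shRNA control array, a difference of 1.93, and differed by -0.61 in the transient pair. The atypical cyclin gene CCNG2 differed by 1.46 and -0.40, and the stress-response gene GADD45A by 1.41 and -0.16. The 5 CCNG2 probe sets above the filter ranged from -0.13 to 1.46 in the stable pair. SESN3, a sestrin gene, differed by -1.82 in the stable pair and was below the filter level on both siRNA arrays. With the siRNA control as reference, the stable knockdown differed by 1.56 in TXNIP, 0.84 in CCNG2, -0.34 in GADD45A and 0.76 in SESN3. GADD45A and SESN3 thus had another sign.

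**Figure D5:**
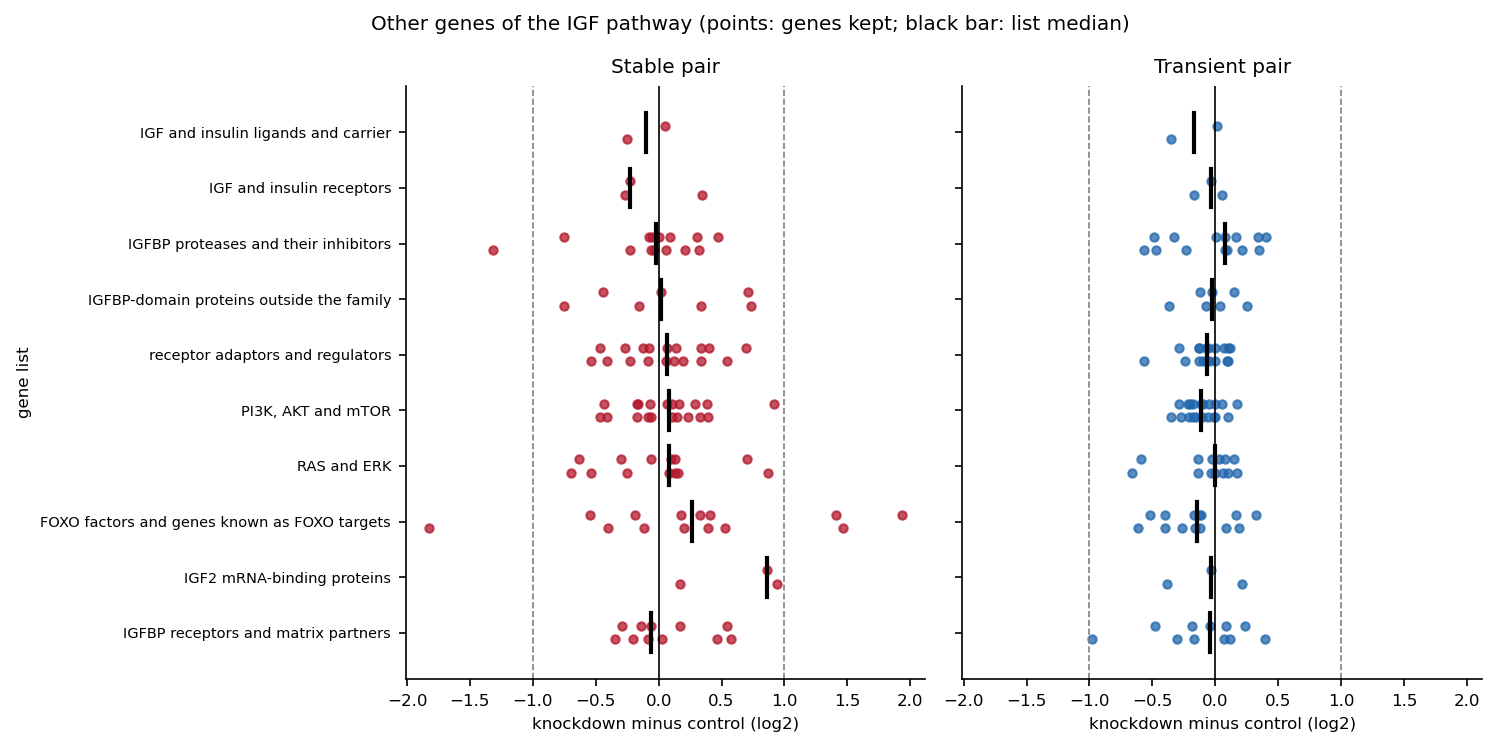
Knockdown minus control difference in log2 units (horizontal axis) for the genes kept in each of 10 lists of the IGF pathway (vertical axis), in the stable pair on the left and the transient pair on the right. Points are genes, black bars are list medians and dashed lines mark 2-fold. The genes past 2-fold are TIMP1, SESN3, TXNIP, CCNG2 and GADD45A, all in the stable pair.

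The IGF2 mRNA-binding proteins, which bind transcripts and share no domain with the IGFBP family, had a median of 0.860 in the stable pair and -0.035 in the transient pair over 3 genes. IGF2BP3 differed by 0.94 and -0.38, and IGF2BP2 by 0.86 and -0.03. Relative to the siRNA control, the stable knockdown differed by 0.63 in IGF2BP3 and -0.34 in IGF2BP2. Of IGFBP receptors and matrix partners, 11 were kept with medians of -0.059 and -0.040. The matrix gene FN1 differed by 0.54 and -0.98, with probe sets from -1.08 to 0.30 in the transient pair. TGFBR2, a receptor of transforming growth factor beta, differed by 0.57 and -0.48. Relative to the siRNA control, the stable knockdown differed by -0.40 in FN1 and -0.45 in TGFBR2.

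The genes nearest to IGFBP1 were sought by the distance between their differences in the stable pair, the transient pair and the controls, over 4 arrays. The 5 nearest were PLA2G4A, a phospholipase gene, at a distance of 0.44, the D-type cyclin gene CCND2 at 0.51, the Notch target HES1 at 0.56, the antisense RNA gene PSMB8-AS1 at 0.58 and CADPS2 at 0.61. HES1 read 7.52 on the shRNA ZEB2 array and 8.95 on the shRNA control array, and 7.26 on the siRNA ZEB2 array and 7.95 on the siRNA control array. PLA2G4A was below the filter level on every array but the shRNA control. The likeness describes these 4 arrays alone. None of the other members was among these 5.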

How the data were processed

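Total RNA of 4 cultures was hybridised to 1 array each. The authors deposited log2 values for each probe set. Per the submitters' processing notes these came from RMA in affy, and no version was among them. RMA corrects background, brings the arrays to 1 distribution and summarises probes, so a change in total RNA per cell is hidden and dim differences are compressed. Precision is limited by how few arrays there are. Platform annotation gave a single symbol to 41097 probe sets and several to 1801, and listed no symbol for 11777. Gene IDs of 41043 matched RefSeq, used for names and for which genes are neighbours. This gave 19775 genes, of which 15082 were kept.

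Groups came from the sample titles. Named genes were ZEB2, the 10 members, from each pathway list the genes at 2-fold in a pair or else the 2 with the largest difference, IGF1, IGF2, IGF2R and INSR, the 5 genes nearest to IGFBP1, and marker genes. STC1 and STC2 fall outside this rule. The members and lists were chosen with earlier results of these data known, so no p-value of a member is independent evidence. Limma 3.58.1 in R 4.3.3 (lmFit and eBayes with trend, 2-sided, Benjamini-Hochberg at 0.05) was run, and its code was checked on simulated data with the spread of the transient pair, which is not a measure of power here. Alternatives were the mean of probe sets, no _x_at probe sets, other filters, scalings, folds and control, all probe sets, no block, no trend and robust moderation. Promoter sequences are from RefSeq. Figures used matplotlib 3.10.9.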

Additional observations from a re-analysis of the deposited data

Results flagged for a closer look

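In 4 genes the knockdowns differed from their controls in opposite directions, with 1 array per group, so the difference between the pairs was not tested. The stable difference minus the transient difference was 1.95 for PAPPA (1.05 and -0.90), 1.07 for IGF1R (0.97 and -0.10), -0.74 for IGFBP4 (-0.40 and 0.34) and -0.47 for IGFBP6 (-0.44 and 0.04). Opposite signs at any size were seen in 51.1% of all genes kept. For IGF1R and IGFBP6 the transient difference was within 0.23, the standard deviation of that pair over all genes kept. For IGFBP4 and IGFBP6 the stable difference was within 0.499, the same measure in the stable pair.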

How the results depend on the processing

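The number of members past 2-fold was 2 in the stable pair, 1 in the transient pair and 3 between the controls. With the mean of all probe sets it was 0 in the stable and 0 in the transient pair, where IGFBP1 differed by -0.83 and -0.52 because its dim second probe set was averaged in. Without _x_at probe sets it was 1 in the stable pair (IGFBP1) and 2 in the transient pair (IGFBP1 and PAPPA). At 3-fold it was 0 in both pairs, against 1.4% of all genes kept in the stable pair and 0.0265% in the transient pair. At 1.5-fold it was 3 in the transient pair, against 2.2%, and 7 between the controls, against 34%. With the siRNA control in place of the shRNA control the stable count was 3, against 11.3% of all genes kept, and PAPPA turned to -2.45. That setting also turned IGFBP3 (0.56), IGFBP4 (1.67) and IGFBP5 (-0.05). The mean of all probe sets turned IGF1R (0.07) and IRS1 (-0.10) in the transient pair and IGF1R between the controls (-0.03). Of 219 recomputed differences of members, 197 moved by less than 0.23, the standard deviation of the transient pair over genes, and 7 had another sign than reported. Median centring, quantile normalization and cyclic loess changed none of these signs. No member passed the adjusted limma test under any of the 12 alternatives, with or without the method as a block. Without the block limma gave 40 genes at an unadjusted p under 0.05, against 384 with it, IGFBP1 among both. The labels give no replicate numbers, so the method was the sole block that could be fitted. IGFBP5 and the shRNA values of PAPPA lie near or below the filter level, which limits what their differences show.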
